A study of Mus musculus with 8 samples.

Results

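Open chromatin at the promoters of 50 ribosomal protein genes was described in thymic group 2 innate lymphoid cells (ILC2s), as a set of housekeeping genes against which the peak lists of the study can be read. The genes were chosen by symbol, by a rule that uses no measured value of theirs, but with earlier results of these data known. They are 50 of 21887 protein-coding genes in the RefSeq gene table of GRCm38.p6, the assembly also called mm10, and all 50 were found there, on 18 chromosomes. Of them, 31 code for proteins of the large ribosomal subunit, the stalk proteins Rplp0 and Rplp1 included, and 19 for proteins of the small subunit. A gene was counted as having a peak where a peak summit lay within 1 kb of either end of its gene body.

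All 8 samples were thymic ILC2s of plck-Id1 mice, strain C57BL/6. In these mice Id1, an inhibitor that binds E proteins and keeps them off DNA, is driven by the proximal Lck promoter, which is active in the T lineage. Retroviral transduction gave the cells either GFP by itself or GFP and E47-ER, in which the E protein E47 is fused to a tamoxifen-responsive part of the estrogen receptor. GFP-positive cells were sorted, expanded in cytokines that included IL-7, IL-25 and IL-33, and treated with 4-hydroxytamoxifen for 4 or 16 h, the GFP controls as well as the E47-ER cells. The 4 groups of 2 samples are called E47 4 h, E47 16 h, GFP 4 h and GFP 16 h, and values in series are given in that order. The free-text sample descriptions assign vectors by replicate in every group, the first replicate being given as empty MIGR1 and the second as MIGR1 with E47-ER, which contradicts the titles and transduction labels followed here. If those descriptions held, both vectors would be mixed in each list.

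Accessibility was measured by ATAC-seq, in which the Tn5 transposase cuts and tags open DNA. The authors deposited 1 peak list per group, made from its 2 samples. Without values per sample, the spread of replicates is unknown and groups cannot be tested against each other. The lists held 49811, 40649, 42665 and 52846 regions after overlapping lines were merged, covering 24.4, 20.6, 21.2 and 24.9 Mb. Read depth is unknown, and absence of a region from a list does not show that the site was closed. Among the cell type markers, 7 of 11 ILC2 genes had a gene-end peak in all 4 lists, among them Il13, Il5 and Il7r, while Gata3, Il1rl1, Rora and Icos did not. Of the markers of other cells, 2 of 6 T cell genes (Cd4 and Cd28), 2 of 4 myeloid genes (Cd14 and Spi1) and none of the B cell, NK or ILC3 genes did.

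Ribosomal proteins, together with ribosomal RNA, form the particle that translates mRNA into protein. Every growing cell needs them in balanced amounts, and their genes lie scattered over the genome, each with its own promoter. These promoters are active in nearly all cell types. They usually lie in a CpG-rich stretch, lack a well-placed TATA box and start transcription at a cytosine within a run of pyrimidines, a feature tied to the growth-dependent translation of the mRNAs. E47 binds the E box, written CANNTG, with CAGCTG and CAGGTG among its preferred forms.

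The promoter sequences of 9 genes show the letters that the results below refer to. Each runs from 120 bases before a RefSeq start to 30 bases from it on, 5′ to 3′ on the strand of the gene, and comes from the RefSeq promoter windows of GRCm38.p6. Capitals mark the ETS-type words CCGGAA and CTTCCG on either strand, the word TCTCGCGA on either strand, and a run of 5 or more pyrimidines over the start. The first 4 belong to the highest-ranked open regions among the 50 genes.
Rpl34, chr3:130730369-130730518 (minus strand): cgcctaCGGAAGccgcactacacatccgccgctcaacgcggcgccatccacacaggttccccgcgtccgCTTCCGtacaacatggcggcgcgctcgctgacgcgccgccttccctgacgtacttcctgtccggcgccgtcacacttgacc
Rpl37, chr15:5116493-5116642 (plus strand): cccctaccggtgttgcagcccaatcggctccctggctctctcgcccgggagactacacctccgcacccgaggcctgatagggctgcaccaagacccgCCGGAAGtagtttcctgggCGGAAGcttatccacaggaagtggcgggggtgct
Rpl15, chr14:18270957-18271106 (minus strand): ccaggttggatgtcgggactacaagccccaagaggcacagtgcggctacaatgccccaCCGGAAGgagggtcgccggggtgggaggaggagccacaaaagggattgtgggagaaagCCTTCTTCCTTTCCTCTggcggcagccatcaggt
Rps13, chr7:116334161-116334310 (minus strand): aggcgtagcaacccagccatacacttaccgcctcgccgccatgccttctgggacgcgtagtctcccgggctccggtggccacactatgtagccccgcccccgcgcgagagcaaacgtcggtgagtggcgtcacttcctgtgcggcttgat
Rps6 and Rpl26 hold both kinds of word, and Rpl28 holds an 11-base pyrimidine run at its start.
Rps6, chr4:86857338-86857487 (minus strand): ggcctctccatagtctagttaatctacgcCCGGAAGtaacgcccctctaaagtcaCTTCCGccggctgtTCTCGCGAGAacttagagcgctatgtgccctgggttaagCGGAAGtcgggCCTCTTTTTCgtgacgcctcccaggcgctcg
Rpl26, chr11:68901446-68901595 (plus strand): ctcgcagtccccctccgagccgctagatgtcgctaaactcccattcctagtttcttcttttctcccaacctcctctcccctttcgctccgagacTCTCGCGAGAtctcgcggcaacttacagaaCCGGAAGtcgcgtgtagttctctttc
Rpl28, chr7:4792845-4792994 (plus strand): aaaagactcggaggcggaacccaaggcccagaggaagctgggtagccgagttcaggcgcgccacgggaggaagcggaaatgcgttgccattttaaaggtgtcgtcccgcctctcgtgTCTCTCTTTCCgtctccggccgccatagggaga
Rps2 and Rpl19 have starts well inside their annotated gene bodies, a point that bears on what a gene-end window sees.
Rps2, chr17:24719943-24720092 (plus strand): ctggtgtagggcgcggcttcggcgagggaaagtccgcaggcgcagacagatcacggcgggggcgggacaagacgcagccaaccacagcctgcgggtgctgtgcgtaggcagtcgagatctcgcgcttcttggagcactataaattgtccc
Rpl19, chr11:98026590-98026739 (plus strand): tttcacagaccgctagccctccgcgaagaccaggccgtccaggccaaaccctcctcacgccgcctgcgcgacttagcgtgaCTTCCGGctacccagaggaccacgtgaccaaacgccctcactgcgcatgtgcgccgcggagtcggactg

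Of the 50 genes, 49 had a gene-end peak in E47 4 h (98%, against 54% of all protein-coding genes), 49 in E47 16 h (against 52.1%), 49 in GFP 4 h (against 52.3%) and 49 in GFP 16 h (against 54.2%). They were the same 49 genes, and 50.1% of all protein-coding genes had such a peak in all 4 lists. The exception in each list was Rps2, a protein of the small subunit near the mRNA entry channel.

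No ribosomal protein gene was called with one vector and not with the other. At 4 h, 0 of 49 genes were called in E47 and not in GFP, where 4.49% of all genes with a peak in either list were, and 0 of 49 in GFP and not in E47, where 1.42% were. At 16 h, the counts were 0 of 49 in E47 and not in GFP (1.62% of all genes) and 0 of 49 in GFP and not in E47 (5.32%). Between the times, E47 had 0 of 49 genes at 4 h and not at 16 h (4.75%) and 0 of 49 in the reverse direction (1.25%). GFP had 0 of 49 at 4 h and not at 16 h (1.32%) and 0 of 49 at 16 h and not at 4 h (4.61%). With shares this low over all genes, a count of 0 among 49 is close to the background. Over all genes the larger share was on the side of the longer list in each pair.

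The strength of a region was taken as its percentile by highest −log10 p among all merged regions of its own list, and for each gene the strongest gene-end region was used. The median over the 49 genes was percentile 89.5, 88.4, 88.7 and 88.4. Over all protein-coding genes with a peak it was 87.2, 85.1, 85.9 and 87.0, a little lower in every list. Above percentile 90 were 23 of 49 genes in E47 4 h (46.9%, against 40.6% of all genes with a peak), 20 in E47 16 h (40.8%, against 35.5%), 22 in GFP 4 h (44.9%, against 37.2%) and 21 in GFP 16 h (42.9%, against 41.1%). These shares lie near the background. The genes spread widely among themselves, from percentile 18.8 to 99.8 in E47 4 h, 13.0 to 99.6 in E47 16 h, 13.1 to 99.6 in GFP 4 h and 15.1 to 99.8 in GFP 16 h. The range of a gene's 4 percentiles had a median of 3.36 (quartiles 2.25 and 5.43), against 4.61 (quartiles 2.44 and 8.45) over the 10976 genes with a peak in all lists. Above percentile 50 in every list were 47 of 49 genes (95.9%), against 89.2%.

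**Figure D1:**
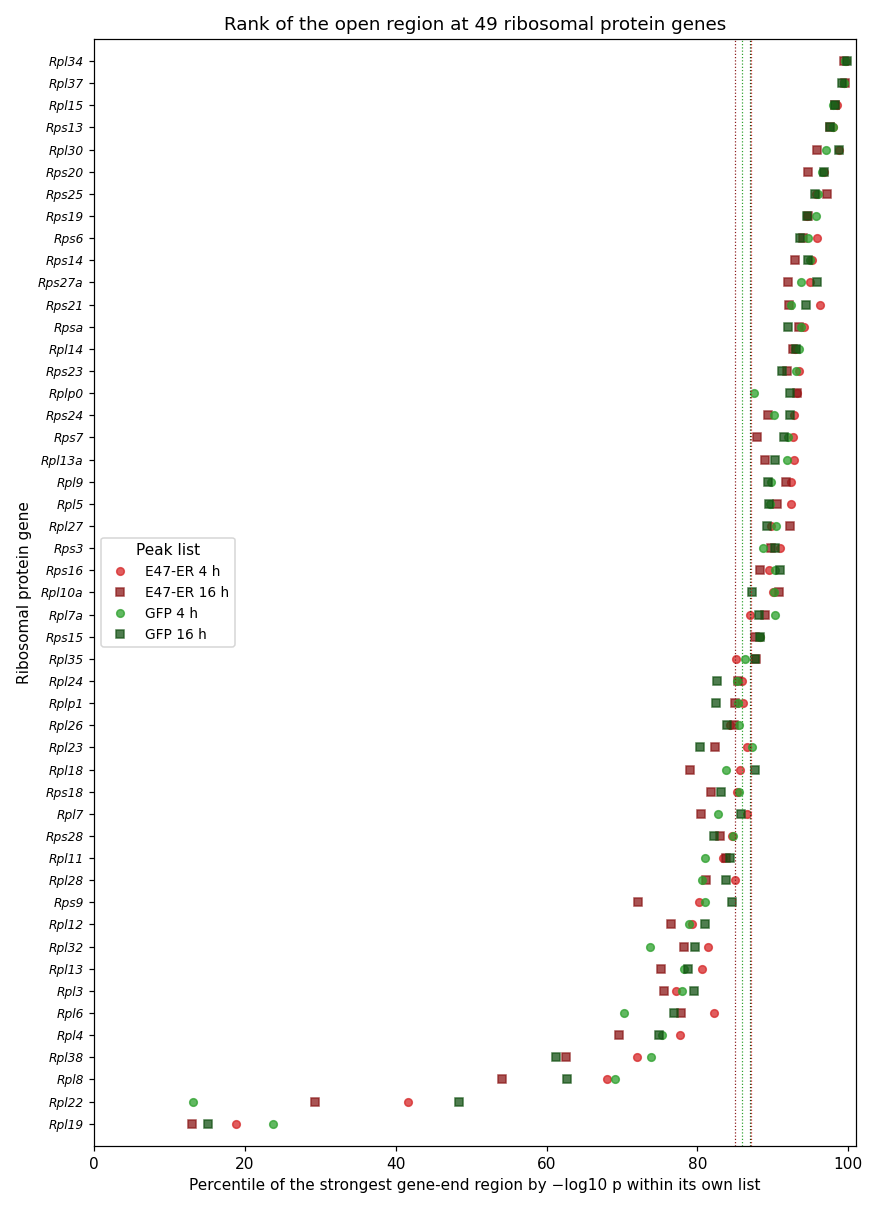
Percentile of the strongest gene-end region of 49 ribosomal protein genes (y axis) by −log10 p within its own peak list (x axis), with red for E47-ER, green for GFP, circles for 4 h and squares for 16 h, and dotted lines at the median over all protein-coding genes with a peak. The marks of Rpl34, Rpl37, Rpl15 and Rps13 nearly coincide, those of Rpl6, Rpl8, Rpl38 and Rps9 spread over more than 10 percentile points, and Rpl19 and Rpl22 stand apart below percentile 50. The strongest region of Rps9 lay at the far end of the gene in all lists but E47 16 h.

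Among the large-subunit genes, the highest ranks belonged to Rpl34, Rpl37, Rpl15 and Rpl30. The Rpl34 region stood at percentile 99.8, 99.5, 99.6 and 99.8, with the authors' fold enrichment over local background at 25.8, 26.0, 24.4 and 25.4. Rpl37 stood at 99.5, 99.6, 99.5 and 99.1, with folds of 24.2, 25.6, 24.9 and 23.8. Each of these regions was thus among the top 1% of its list in both vectors at both times. Rpl15, which lies 150 bp from the start of Nkiras1, an inhibitor of NF-kappaB signalling, stood at 98.6, 98.3, 98.1 and 98.2. Rpl30 stood at 98.8, 95.8, 97.1 and 98.8. Rpl5 and Rpl11, which with the 5S rRNA form the particle that can bind Mdm2 and so stabilise p53, differed in rank. Rpl5 stood at 92.4, 90.6, 89.6 and 89.5, and Rpl11 at 83.4, 83.9, 81.0 and 84.4. The stalk genes, whose proteins recruit elongation factors to the ribosome, lay at 93.2, 93.2, 87.5 and 92.3 for Rplp0 and at 86.1, 85.0, 85.4 and 82.5 for Rplp1. Rplp0 was below percentile 90 in GFP 4 h alone, and Rplp1 in every list.

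The lowest ranks were also found in the large subunit. Rpl19 stood at percentile 18.8, 13.0, 23.7 and 15.1, with folds of 3.64, 3.51, 4.04 and 3.82. Rpl22, a gene needed for alpha-beta T cell development, stood at 41.6, 29.3, 13.1 and 48.4. It had the widest range between lists, 35.3 percentile points, where the next widest, that of Rpl8, was 15.0. Rpl8 stood at 68.1, 54.1, 69.0 and 62.8, Rpl38 at 72.1, 62.6, 73.8 and 61.3, and Rpl4 at 77.7, 69.6, 75.3 and 75.0. In E47 4 h and GFP 16 h, the Rpl4 values belong to a region at the far end of the gene. At its RefSeq start Rpl4 stood at 76.5, 69.6, 75.3 and 67.4. Loss of Rpl38 disturbs translation of Hox mRNAs in the mouse embryo. Its RefSeq start lies 762 bp inside the annotated body, and from that start its percentiles were 72.5, 64.8, 73.8 and 76.2, so that GFP 16 h was its lowest list by the gene ends and its highest by the start.

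The small-subunit genes had the higher median in every list. Their median percentile was 93.8, 92.0, 92.8 and 92.2 over 18 genes, against 85.9, 84.9, 85.4 and 84.4 over 31 large-subunit genes. Above percentile 90 were 13, 10, 13 and 14 of the 18, and 10, 10, 9 and 7 of the 31. These are gene-end values. The large-subunit figures include the low values of Rpl19 and Rpl22, which have a stronger region at an inner start, and Rps2 has no gene-end value. The split was made after the values had been seen, and the difference was not tested. Of all genes with a peak, 40.6%, 35.5%, 37.2% and 41.1% were above percentile 90 in the single lists. Their share above it in every list is not given, so the next count has no background beside it. In all 4 lists, 15 genes were above percentile 90, and 10 of them code for the small subunit: Rps6, Rps13, Rps14, Rps19, Rps20, Rps21, Rps23, Rps25, Rps27a and Rpsa. Rps13 led them at 97.9, 97.6, 98.0 and 97.6, with folds of 21.7, 22.9, 23.8 and 21.0. Rps6, the substrate of S6 kinase, stood at 95.8, 94.0, 94.7 and 93.6. Rps19, mutated in many patients with Diamond-Blackfan anaemia, stood at 94.6, 94.7, 95.7 and 94.6. Rps27a, which is made as a fusion with ubiquitin, stood at 95.0, 92.0, 93.7 and 95.9. Rps9, at 80.2, 72.1, 81.0 and 84.6, was the lowest of the 18 in every list but GFP 16 h, where Rps28 was, at 82.2. Except in E47 16 h, these Rps9 values belong to a region at the far end of the gene. At its RefSeq start Rps9 stood at 75.6, 72.1, 74.1 and 75.6, in GFP 16 h too below the gene-end value of Rps28.

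The regions were of moderate width and held several summits. Their median width was 778, 763, 781 and 717 bp, against 850, 834, 834 and 827 bp over all genes with a peak. The median number of summit lines per region was 4 in every list. The median fold was 18.5, 18.1, 17.5 and 16.6, against 16.2, 15.8, 15.5 and 15.6 over all genes. Rpl7 had the widest region, 1734, 1704, 1732 and 1787 bp, with 8 summit lines in each list. Rpl7a followed with 1059, 1295, 1064 and 1413 bp and 7, 8, 7 and 9 lines. Rps6 spanned 1244, 1086, 1060 and 1223 bp. Rps20 had 7, 7, 7 and 6 lines over 1165, 1160, 1181 and 991 bp. At the other end, the region of Rpl8 was 221, 625, 229 and 231 bp wide, that of Rpl22 372, 212, 360 and 215 bp, and that of Rpl19 279, 402, 379 and 367 bp. The widest region was not among the highest by rank: Rpl7 had folds between 8.54 and 9.34 and stood at percentile 86.5, 80.5, 82.7 and 85.7.

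Widths varied between lists. The median range of a gene's 4 widths was 184 bp, against 167 bp over all genes with a peak in every list, and 7 genes (14.3%, against 16.0%) had the same number of lines in all 4 lists. Rpl14, with widths of 523, 520, 515 and 515 bp and 3 lines throughout, was among the steadiest. Rpl6 measured 968, 272, 869 and 266 bp, with 5, 1, 4 and 1 lines: the long region of the 4 h lists was 2 regions in both 16 h lists. Rps24 measured 309, 967, 962 and 710 bp, and the one list in which it was short, E47 4 h, held 4 regions at the gene in place of 1.

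**Figure D2:**
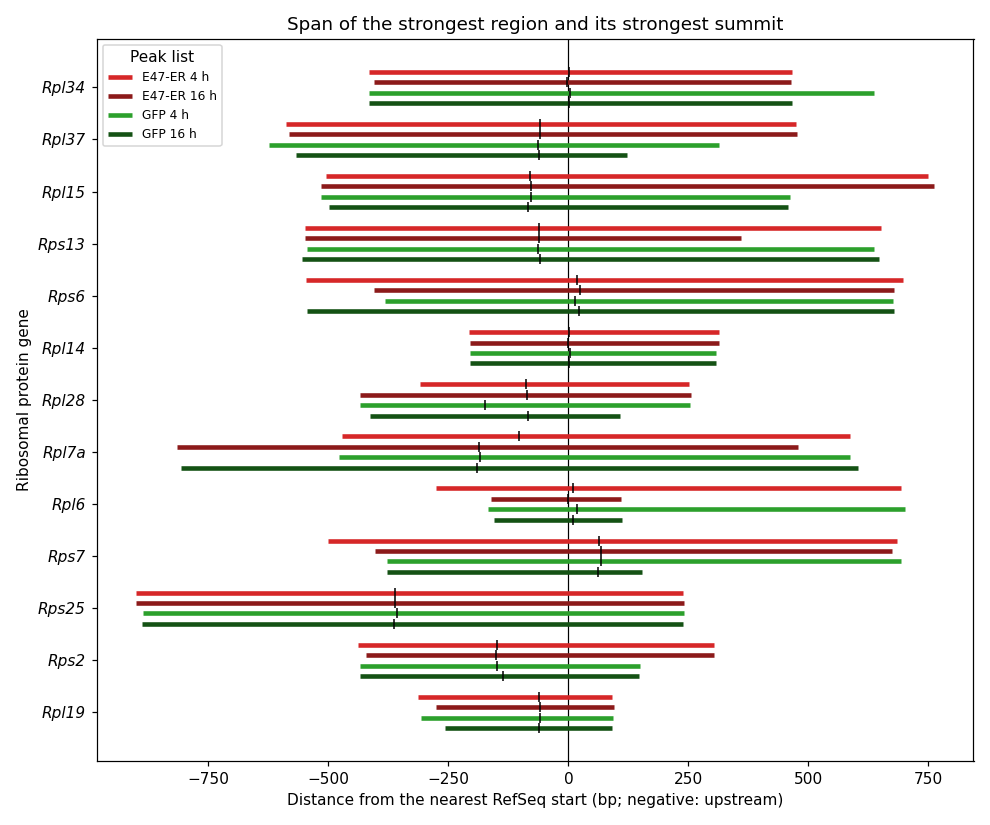
Span of the strongest region around the RefSeq start nearest to its summit (horizontal bars, bp, negative upstream) and its strongest summit (tick) for 13 ribosomal protein genes in the 4 peak lists. The summit ticks of Rpl34, Rpl37, Rps13 and Rps25 line up between lists while the bar ends differ, and Rpl6 has short bars in both 16 h lists.

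In Rps2, Rpl19 and Rpl22, which were missing or lowest above, a RefSeq start lies well inside the annotated gene body. The body of Rps2 spans chr17:24718121-24721927, and the summits nearest to either end lay 1443, 1582, 1589 and 1577 bp away, beyond the window. Its RefSeq start, 24720063, lies 1942 bp inside that body. The region there stood at percentile 88.9, 85.1, 90.4 and 86.9, with folds of 14.8, 13.3, 15.5 and 13.8, and its strongest summit lay at −148, −150, −148 and −137 bp from the start, negative meaning upstream. The stretch printed for Rps2 holds no ETS-type word, while its longer promoter window holds both CCGGAA and CTTCCG. Rpl19 has its first RefSeq start 4707 bp inside the annotated body, at 98026710 on chromosome 11. The region there stood at percentile 83.7, 83.3, 86.9 and 80.6, well above the gene-end region of the same gene. Rpl22 has a start at the end of its body and another at 152325726 on chromosome 4. At the latter, a region of 971, 948, 924 and 976 bp stood at percentile 97.3, 94.6, 92.7 and 95.3, with folds of 20.6, 18.1, 16.8 and 17.8. The low gene-end values of Rpl22 belong to a separate region at the far end of the gene. The gene-end values of these 3 genes thus leave out the stronger region at the inner start. Rpl18 also has its RefSeq start inside the body, 2604 bp from the end. The region there stood at percentile 77.5, 82.8, 85.2 and 76.4, against 85.7, 79.0, 83.8 and 87.7 at the gene end. The inner start of Rpl18 was thus the stronger in E47 16 h and GFP 4 h only.

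The count was repeated from RefSeq starts. Starts were at hand for 41 of the 50 genes, and all 41 had a summit within 1 kb of a start in every list, against 55.8%, 54.4%, 54.6% and 55.8% of 17492 protein-coding genes. The genes matched by no entry were Rpl3, Rpl7, Rpl8, Rpl30, Rpl32, Rplp1, Rps14, Rps20 and Rps27a. The lowest percentile over the 41 genes was then 72.5, 64.8, 70.3 and 67.4. Their median was 89.7, 89.0, 89.8 and 89.3, against 87.8, 85.8, 86.5 and 87.8 over all genes with a peak at a start.

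The strongest summit lay close to the start. Its median offset was −32, −25, −23 and −23 bp, against −28, −28, −29 and −30 bp over all genes. In each list 35 of 41 genes (85.4%) had it within 150 bp of the start, against 74.1%, 74.7%, 75.5% and 73.6% of all genes with a peak there. The region covered a start in 39, 39, 40 and 39 genes (95.1%, 95.1%, 97.6% and 95.1%), close to the 91.2%, 91.5%, 92.2% and 90.9% of all genes. The side of the strongest summit was read as well. It was upstream of the start in 58.5%, 58.5%, 56.1% and 51.2% of the 41 genes, against 61.2%, 61.4%, 61.8% and 62.1% of all genes. For its side over all 4 lists, no share over all genes is given. The summit was on the same side of the start in all 4 lists for 33 genes, upstream in 20 and downstream in 13. Rpl14 (+1, −1, +3 and +1 bp), Rpl34 (+2, −3, +3 and +2 bp) and Rps9 (−5, −6, −2 and 0 bp) had it within a few bp of a start. Where a gene has several RefSeq starts, as 7 of the 41 do, the nearest was used. The Rpl34 offsets are from 130730337, which lies 61 bp downstream of the start at 130730398 whose sequence is printed, so that its summit falls outside the printed stretch. Rpl37 had it at −59, −60, −64 and −62 bp and Rps13 at −61, −61, −64 and −60 bp. Farthest were Rpl4 (−488, −489, −496 and −494 bp), Rps25 (−361, −361, −358 and −364 bp) and Rpl38 (+539, +534, +17 and +542 bp). Both Rpl4 and Rps25 have a neighbouring gene on that side: the end of Zwilch lies 283 bp from the start of Rpl4, and that of Trappc4, a part of the TRAPP vesicle-tethering complex, 166 bp from the start of Rps25.

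**Figure D3:**
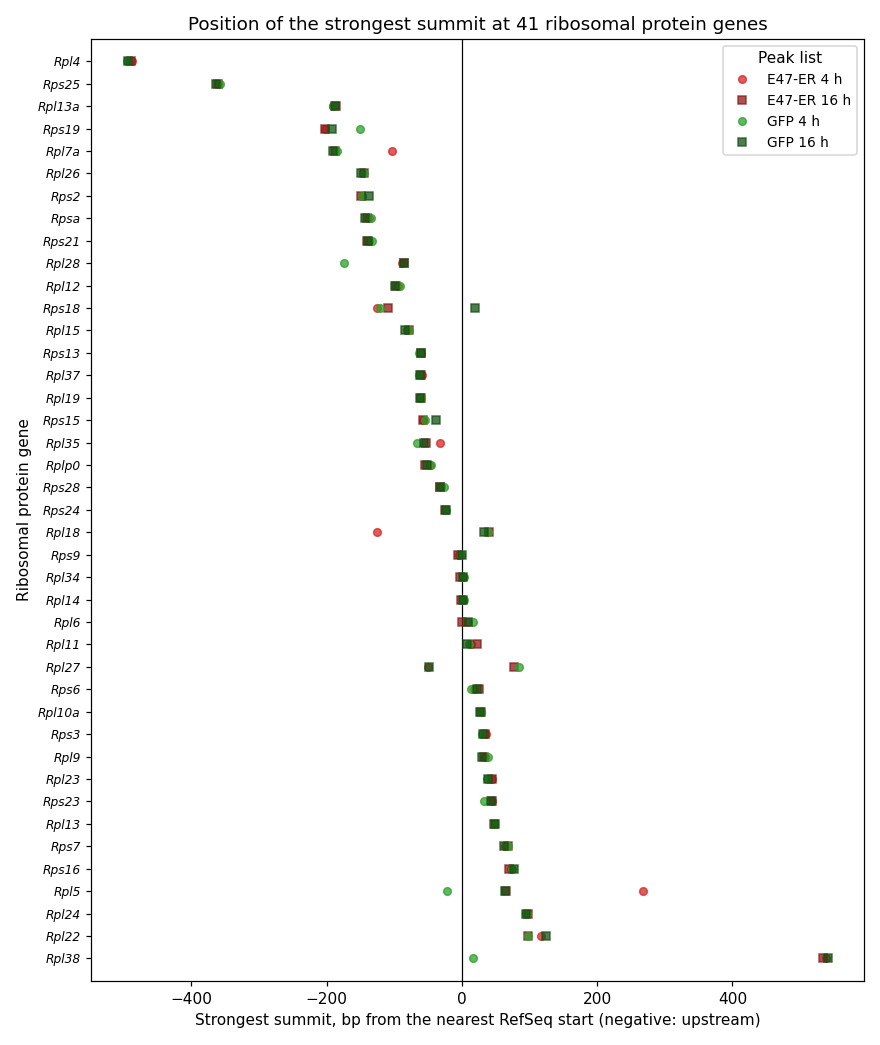
Distance of the strongest summit from the nearest RefSeq start (x axis, bp, negative upstream) for 41 ribosomal protein genes (y axis), coloured by vector and shaped by time. The marks of most genes fall on each other within 20 bp, while genes such as Rpl5, Rpl7a, Rpl18, Rpl27, Rpl28, Rpl38 and Rps18 have 1 or more lists far from the rest.

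The same summit led the region from list to list in most genes. The largest distance between the strongest gene-end summits of any 2 lists had a median of 8 bp over the 49 genes (quartiles 5 and 35), against 12 bp (quartiles 6 and 81) over 10976 genes with a peak in all lists. It was within 20 bp in 34 genes (69.4%, against 61.7%) and over 100 bp in 5. Those 5 were Rpl4 and Rps9, in which the strongest summit passed from one gene end to the other, and Rpl5 (290 bp), Rps18 (145 bp) and Rpl27 (135 bp). The strongest summit of a list was found again within 20 bp in all other lists for 44, 44, 42 and 45 of 49 genes (89.8%, 89.8%, 85.7% and 91.8%). Over the 10976 genes with a peak in all lists the share was 84.9%, 84.3%, 84.0% and 84.5%, close to that of the 49. Of the 15 ribosomal protein genes whose lead moved by more than 20 bp, the leading summit was found again for 10, 10, 8 and 11 (66.7%, 66.7%, 53.3% and 73.3%), against 60.7%, 59.1%, 58.1% and 59.5% of 4205 such genes. Rpl18, Rpl19, Rpl22 and Rpl35 were the genes whose leading summit was not matched from any list.

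Smaller regions beside the main one differed more between the vectors. The windows of the 49 genes held 88, 71, 69 and 80 regions, none shared by 2 of these genes. In E47 4 h, 12 of 88 regions (13.6%) overlapped no region of GFP 4 h, against 12.8% of all gene-end regions, and 0 of 69 regions of GFP 4 h overlapped none of E47 4 h, against 3.84%. In E47 16 h, 3 of 71 regions (4.23%) overlapped none of GFP 16 h, against 5%. In GFP 16 h, 4 of 80 regions (5%) overlapped none of E47 16 h, against 13.1%. The first and the third share are near their background, and the other 2 are lower. The unmatched regions were narrow and weak. The 12 of E47 4 h had a median width of 123 bp and a median percentile of 7.10, and none was above 28.7. The strongest of the others was a 147 bp region at Rps9 in E47 16 h, at percentile 40.9, and in GFP 16 h a 339 bp region at Rps3, at percentile 24.8.

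A side region at Rps27a was the one region called in E47 and not in GFP at both times, and none was called in GFP and not in E47 at both. It lay at chr11:29547385-29547516 at 4 h and chr11:29547389-29547522 at 16 h, inside the gene body. Its folds were 3.61 and 3.01, and its percentiles 19.9 and 1.26. It was thus close to the lower limit of the 16 h list, while the main Rps27a region stood above percentile 92 in every list, GFP included. No share over all gene-end regions is given for regions called in a single vector at both times.

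A single gene-end region was found at 26, 35, 34 and 26 of 49 genes (53.1%, 71.4%, 69.4% and 53.1%), against 63.9%, 68.6%, 70.0% and 62.8% of all genes with a peak. Both longer lists, E47 4 h and GFP 16 h, had fewer genes with a single region. Rpl4 had 7, 4, 3 and 4, the most of any of the 49 genes in E47 4 h, and Rps9 had 4 in every list. Of 36 genes longer than 2 kb with a known strand, 34, 35, 35 and 34 had a summit at the start side (94.4%, 97.2%, 97.2% and 94.4%). Of 15328 such genes in all, 57.8%, 56.2%, 56.6% and 57.9% did. These shares, and those for the far end, count genes without a peak at either end, which are more frequent over all genes. The far-end shares are thus not directly comparable. At the far end, 6, 5, 5 and 5 of the 36 had a summit (16.7%, 13.9%, 13.9% and 13.9%), against 7.55%, 6.35%, 6.58% and 7.70%. Those at the far end in every list were Rpl4, Rpl22, Rps9, Rps18 and Rps19. Another protein-coding gene ends or starts within 1 kb of an end of 18 of the 50 genes (36%), against 24.8% of all protein-coding genes. Rpl7a and Med22, a Mediator subunit, lie 43 bp apart, Rps28 and Ndufa7, a subunit of respiratory complex I, 10 bp, Rpl12 and Lrsam1 58 bp, Rpl9 and Lias 66 bp, Rpl37 and Card6 51 bp, and Rps18 and Vps52 114 bp. A peak in such a shared window cannot be assigned to one of the neighbours from these lists.

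The promoter sequences were compared over windows of 300 bases, from 250 before to 50 after each start. There were 49 windows for the 41 genes, and 21263 windows for protein-coding genes in all. Each word was searched on both strands. An E box (CANNTG) was present in 24 of 49 windows (49.0%, against 69.0% of all). CAGCTG was found in 2 windows, those of Rpl35 and Rpl6 (4.08%, against 15.6%), and CAGGTG, which reads CACCTG on the other strand, in 4 windows of Rpl22, Rpl27 and Rpl38 (8.16%, against 19.7%). Either of the E47-type forms was thus in 12.2% of the windows, against 31.9%. The word count says nothing of binding by E47, and no binding data were used here.

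The E47-type words could be set against the peaks. Those of Rpl27, Rpl35 and Rpl6 are shown with 20 bases on each side, in capitals, from the same RefSeq windows on the strand of the gene.
Rpl27, chr11:101442168-101442213 (plus strand): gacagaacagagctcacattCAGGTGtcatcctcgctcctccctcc
Rpl35, chr2:39005276-39005321 (minus strand): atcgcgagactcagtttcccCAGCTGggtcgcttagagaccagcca
Rpl6, chr5:121204346-121204391 (plus strand): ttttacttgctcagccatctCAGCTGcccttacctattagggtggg
In Rpl27 the word begins 57 bp upstream of the start, and a summit lay 7, 3, 8 and 8 bp from it. That summit was the strongest of the region in E47 4 h and GFP 16 h (offsets of −50 and −49 bp), while one at +77 and +85 bp led in E47 16 h and GFP 4 h. Neither position was kept to one vector. The Rpl27 region stood at percentile 89.7, 92.3, 90.5 and 89.3. In Rpl35, whose word begins 170 bp upstream, the nearest summit was 133, 112, 98 and 109 bp away. In Rpl6, whose word begins 135 bp upstream, it was 88, 135, 152 and 144 bp away. The word of Rpl38, 44 bp downstream of its start, lay in a region of every list at percentile 72.1, 62.6, 73.8 and 61.3. The words of Rpl22 lay in no region of any list.

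Other words were more frequent in the ribosomal protein promoters. CCGGAA was present in 23 windows (46.9%, against 18.7%) and CTTCCG in 28 (57.1%, against 21.1%). These are core letters bound by ETS factors such as GABP, and CTTCCGG holds both. Either was in 33 windows of 31 genes (67.3%, against 26.9%). In the first window of each gene, 75 such words began at a median of −61 bp from the start, with 70.7% within 100 bp of it, against −46 bp and 70.1% over all genes. TCTCGCGA, searched after the sequences had been seen, was in 9 windows of 8 genes (18.4%, against 1.41%), namely Rpl7a, Rpl10a, Rpl12, Rpl26, Rpl35, Rps6, Rps19 and Rps28. A run of 5 or more pyrimidines over the start, searched on the strand of the gene, was present in 12 windows (24.5%, against 8.59%), among them those of Rps6, Rpl15 and Rpl28 printed above. The start base, also counted after the sequences had been seen, was G in 18 windows (36.7%, against 39.3%), C in 13 (26.5%, against 13.8%), A in 11 (22.4%, against 37.4%) and T in 7 (14.3%, against 9.58%). GGGCGG, bound by SP1, was in 28 windows (57.1%, against 46.2%), CCAAT in 17 (34.7%, against 38.2%), TATAAA in 4 (8.16%, against 12.6%) and AAGATGG, a YY1-type word, in 5 (10.2%, against 6.24%). The median share of G and C was 59%, against 56.3%. Some genes have several overlapping windows, a match is no proof of a site, and none of these shares was tested. Of the 4 leading genes, Rpl34, Rpl37 and Rpl15 show ETS-type words in the printed sequence, and Rps13 has CTTCCG in the part of its window that was not printed.

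**Figure D4:**
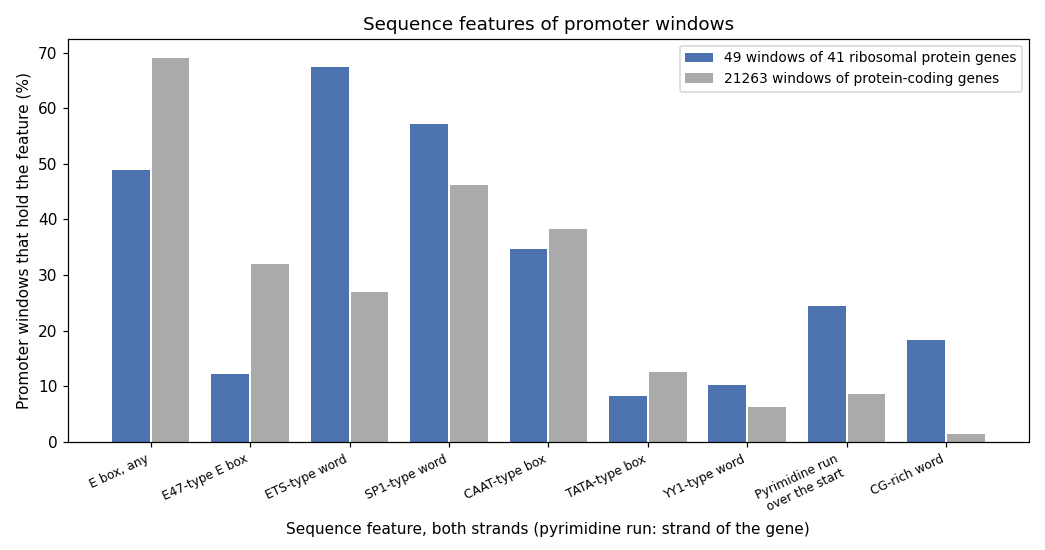
Share of promoter windows (y axis, percent) that hold each sequence feature (x axis), in blue for 49 windows of 41 ribosomal protein genes and in grey for 21263 windows of protein-coding genes. ETS-type words (67.3% against 26.9%), the pyrimidine run and the CG-rich word, TCTCGCGA, are more frequent in blue, and E47-type E boxes (12.2% against 31.9%) are less frequent.

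Genes of related function were read in the same way. Of 32 other cytosolic ribosomal protein genes, 31 had a gene-end peak in all 4 lists, Rpl17 being the exception, and their median percentile was 87.6, 86.1, 85.9 and 86.6. Of 78 mitochondrial ribosomal protein genes, whose products make the ribosome of that organelle, 74 did, with medians of 87.9, 85.6, 86.7 and 87.7. Of 71 genes with translation factor symbols, 65 did, with medians of 91.9, 90.1, 91.0 and 92.5. Of 20 ribosome assembly genes, 19 did, all but Ubtf, with medians of 91.7, 90.8, 91.3 and 91.8. By median alone, the 50 ribosomal protein genes lay between the other ribosomal protein genes and the translation and assembly genes. Both quartiles of the other cytosolic ribosomal protein genes were higher than those of the 50 in every list. In E47 4 h they were 84.8 and 95.5, against 84.3 and 94.1. The sets overlapped, and their order was not tested. No ILC2 marker gene stood above percentile 90 in any list, and the median of those with a peak was 65.0, 57.8, 45.2 and 57.3.

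**Figure D5:**
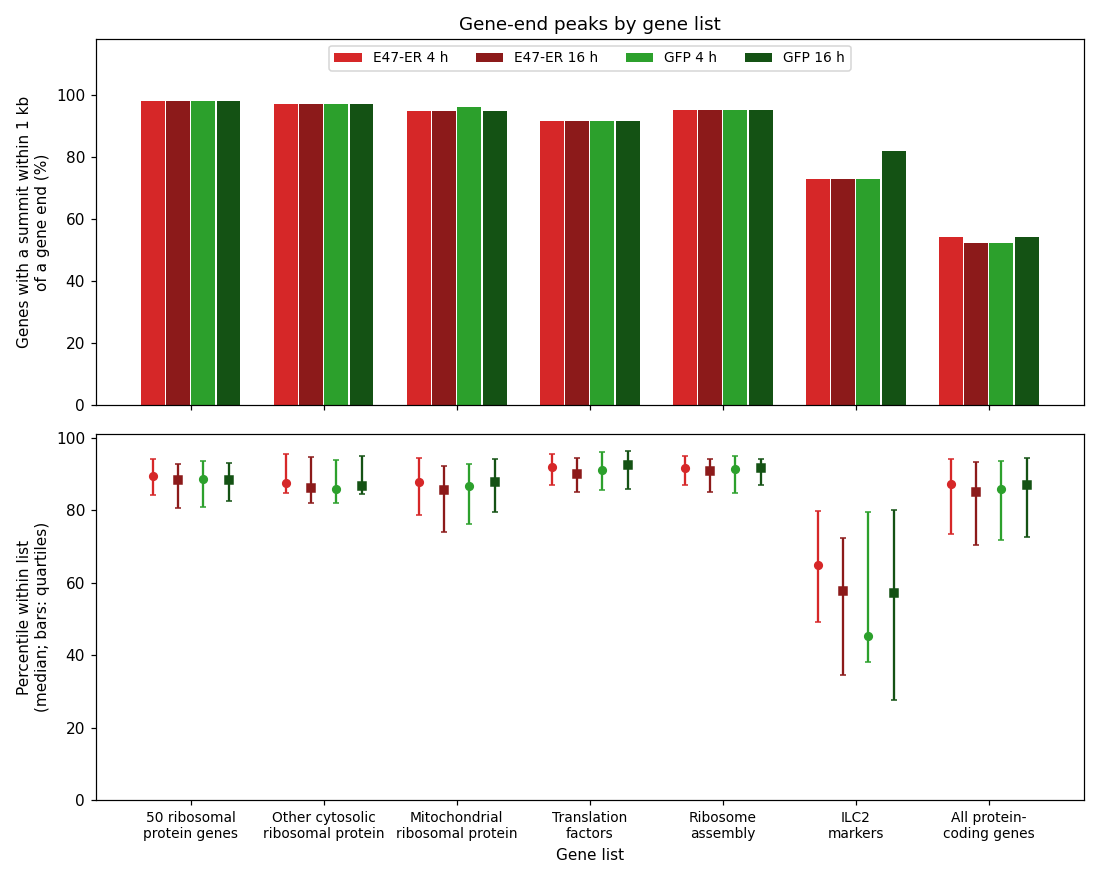
Share of genes with a summit within 1 kb of a gene end (top, percent) and percentile of the strongest gene-end region within its list (bottom, median with quartiles) for 7 gene lists in the 4 peak lists. The ribosomal protein genes sit at 98% in every list with medians from 88.4 to 89.5, and ILC2 markers have lower shares and percentiles.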

How the data were processed

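Chromatin accessibility was measured by ATAC-seq in 8 samples, 2 in each of 4 groups taken from the sample titles. The submitters' processing notes name mm10, MACS2, Bowtie2, cutadapt and DiffBind, with versions and settings not given in the sources used here. The deposited lists, 1 per group, are named per the labels as conservative sets by irreproducible discovery rate. Each deposited line gives a start, end and summit offset, a score that the authors capped at 1000, a fold enrichment (a ratio to the local level), and a −log10 p, per the file column order. The −log10 q was left out. The lowest −log10 p was 2.00. Read depth is not given, and how it differed between lists could set their length.

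Lines that overlapped by 1 bp or more were merged into regions. A gene was called where a summit lay within 1 kb of a gene end. Gene positions and promoter windows came from RefSeq GRCm38.p6 tables, with no genome sequence. Percentiles by highest −log10 p were taken within a list. No test was made, since each group has 1 list, and shares over members stand beside those over all protein-coding genes. The members and gene lists were chosen with earlier results of these data known. Named genes were those not called in every list, the 5 highest and 5 lowest by mean percentile, the 3 extremes in width, summit lines, summit shift and distance from the start, those with a neighbouring gene end, with an E47-type word, or with a region in one vector at both times; Rpl5, Rpl6, Rpl7a, Rpl11, Rpl14, Rps6, Rps19, Rps24, Rps27a, the stalk genes and the subunit split were chosen for their function or after their values were seen. Alternatives varied the window, the ranking, the merging and the list length. The counting code was tested on simulated data. Python 3.11.15, pandas 2.3.3, numpy 2.4.6 and matplotlib 3.10.9 were used.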

Additional observations from a re-analysis of the deposited data

How the results depend on the processing

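Of 88 values recomputed under other settings, 79 stayed near the main value (counts within 1.5 times of it), and 9 moved. Ranked among gene-end regions alone, 6, 5, 6 and 6 genes were above percentile 90 in E47 4 h, E47 16 h, GFP 4 h and GFP 16 h. Gene-end regions rank high among all regions, so counts fall when they are ranked only against each other. Ranked among single summit lines, 32, 31, 33 and 29 genes were above percentile 90, against main counts of 23, 20, 22 and 21. The count thus rose in every list, and past the limit of 1.5 times in E47 16 h alone. Ranked by fold, the counts were 24, 22, 23 and 15. With lists shortened to an equal number of regions they were 21, 20, 18 and 14. These stayed within the limit, but the GFP 16 h count was the lowest in both. No share over all genes is given for any of these alternatives. With only lines above the median of a list, 1 gene, Rpl22, was called in E47 4 h and not in GFP 4 h, and 1, again Rpl22, in GFP 16 h and not in E47 16 h. With a window of 500 bp, 1 gene, Rpl19, was called in GFP 4 h and not in E47 4 h. With lists shortened to an equal number of regions, an alternative chosen after seeing the data, 1 gene, Rpl19, was called in E47 16 h and not in GFP 16 h. Both have a RefSeq start inside the annotated body, and Rpl22 has another at its end. With 2 kb no gene was missing from any list, and with top-score lines alone Rpl19 and Rps2 were. No paired analysis was possible because each group has 1 pooled list and no values per sample, and for the same reason no replicate could be left out.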

Other observations

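Many of the ribosomal protein genes host small nucleolar RNAs, which guide the modification of ribosomal RNA and are released from introns. The RefSeq table places 36 snoRNA entries inside 18 of the 50 genes (36%), against 372 of all protein-coding genes (1.70%). Rpl4 holds 5, and Rpl7a and Rpl13a hold 4 each.

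Farther out, within 10 kb of the 50 genes, the lists held 160, 130, 134 and 155 regions. Of these, 2 were called in E47 and not in GFP at both times, the side region of Rps27a and a region 3762 bp from Rpl13a at percentile 29.1 and 30.1. In GFP and not in E47 at both times, there were 6 regions, near Rpl13a (6305 bp away), Rpl14 (2324 bp), Rpl22 (6878 bp), Rps2 (9908 bp) and Rps20 (4378 bp), and inside Rpl35. No share over all genes is given for these counts, so 2 and 6 are not read as a trait of these genes. The highest percentile among the 6 was 54.7, inside Rpl35 at 16 h. Just inside the 1 kb window, the last summits were at Rpl22 (986 bp, fold 7.33) in E47 4 h and at Rpl38 in the other lists (982 to 986 bp, folds of 6.97 to 7.80). Just outside it were a summit of Rpl13a (1001 bp, fold 6.35) in E47 4 h and summits of Rpl22 (1003 to 1008 bp, folds of 4.73 to 6.40) in the other lists.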
